A study of Homo sapiens with 29 samples.

Results

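The comparison described here is that of hTERT RPE-1 cells incubated with an inhibitor of Mps1 against the same cells incubated with the solvent DMSO. It was chosen by condition alone: the 4 count columns of Mps1i-treated cells and the 4 of DMSO-treated cells in one deposited table, which correspond to 12 of the 29 samples of the series. hTERT RPE-1 is a telomerase-immortalised line of human retinal pigment epithelial cells, here carrying the nuclear markers H2B-emiRFP703 and NLS-3xDendra2. Mps1i is BAY1217389, used at 100 nM for 24 h. In each condition nuclei were photoconverted at random with UV pulses of 200 or 800 ms, and cells of each pulse length were sorted into their own library. All cells, DMSO controls included, were also kept in the Cdk1 inhibitor RO-3306 from shortly before imaging. The table held 2 experiments on separate days, each with both conditions and both pulse lengths. Because nuclei were assigned to the pulses at random, both pulse lengths of a condition and day were taken to come from one culture. On this reading 2 independent experiments stood behind the 4 libraries of each condition. Unless stated otherwise, the p-values below come from fits with experiment as a block. They measure the spread left between these libraries once the difference between experiments is taken out.

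Mps1, also called TTK, is the kinase that starts the spindle assembly checkpoint at kinetochores that are not attached to microtubules. Without it, cells leave mitosis before chromosomes are aligned, and daughter cells carry chromosome gains, losses and micronuclei. The best known transcript changes that follow are a rise of p53 target genes and a fall of genes for G2 and mitosis. The authors describe expression of the cytosolic DNA sensor cGAS in RPE1 cells as lacking and elsewhere as reduced. The results below turn mainly to genes outside those programmes and outside the ribosomal protein genes.

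The 8 libraries held between 65608678 and 145242185 estimated counts over 10577 genes, with overlapping ranges in both conditions. Levels are given as CPM, counts scaled to library size by TMM; they are not corrected for gene length and compare libraries, not genes. For each gene, values are listed in the order 200 ms and 800 ms of experiment 1, then 200 ms and 800 ms of experiment 2. A log2 fold change is that of Mps1i over DMSO from edgeR's quasi-likelihood fit with experiment as a block, and a gene was called when its Benjamini-Hochberg adjusted p over all genes was under 0.05. By this rule 2593 genes changed, 24.5% of those tested. Of these, 1340 were higher with Mps1i (12.7%) and 1253 lower (11.8%). Without the block the count was 1277, and all 1277 were among the 2593. With both pulse lengths of a condition summed within each experiment it was 924, of which 497 were higher and 427 lower. Most changes were small: the median size over called genes was 0.214 on the log2 scale, a 1.16-fold change, against 0.0914 over all genes. Of the called genes, 95.5% moved one way in all 4 matched pairs of libraries, against 41.5% of all genes. The calls were made from these same libraries, so this contrast is in part built in.

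Changes over 1.5-fold were mostly increases, 81 higher and 14 lower. Outside the p53-activated genes, the G2 and mitosis genes and the ribosomal protein genes stood 2409 of the called genes, which is 23.3% of the 10348 genes tested there. Among them 60 were higher and 12 lower by over 1.5-fold. In the G2 and mitosis list 77 of 79 genes were lower with Mps1i, and their summed level lay between 20900 and 21790 CPM in the DMSO libraries and between 15390 and 17580 CPM in the Mps1i libraries. In bulk samples fewer cells in a phase and less RNA per cell cannot be told apart, and the part of this shift in the changes below was not tested.

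Genes were named by a rule that took the largest changes seen in all 4 pairs, leaving out those programmes and genes shown in an earlier account of these data. The increases it named included genes for protease inhibition, protein folding, the contractile cytoskeleton and transcriptional control. SERPINB2, an inhibitor of urokinase, was measured at 44.2, 39.5, 19.6 and 17.6 CPM with DMSO and 79.6, 82.3, 58.4 and 56.7 CPM with Mps1i. Every Mps1i library lay above every DMSO library, and in each condition both libraries of experiment 1 lay above both of experiment 2. The log2 fold change of SERPINB2 was 1.29 ± 0.11 (SE), adjusted p = 4.67e-05. HSPB8, a small heat shock protein that works with the co-chaperone BAG3, was at 7.93, 7.94, 9.31 and 8.92 CPM with DMSO and 15.5, 15, 21.7 and 21.1 CPM with Mps1i. The groups did not overlap, as for 19.3% of all genes tested, and the log2 fold change of HSPB8 was 1.09 ± 0.07 (SE), adjusted p = 6.83e-06. ACTA2, the smooth muscle actin of myofibroblasts, was at 26.7, 23.7, 38.2 and 39.4 CPM with DMSO and 53, 55.6, 69.5 and 74.5 CPM with Mps1i. Its libraries of experiment 2 were the higher ones in both conditions, and its log2 fold change was 0.99 ± 0.06 (SE), adjusted p = 3.58e-06.

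PCLO, a scaffold protein best known from presynaptic terminals, was at 2.61, 4.36, 4.25 and 4.41 CPM with DMSO and 7.08, 9.03, 7.19 and 9.18 CPM with Mps1i, with a log2 fold change of 1.06 ± 0.16 (SE), adjusted p = 0.000927. The bZIP transcription factor gene CREB5 was at 3.77, 3.01, 4.32 and 4.16 CPM with DMSO and 6.22, 7.18, 7.42 and 8.45 CPM with Mps1i, with a log2 fold change of 0.94 ± 0.10 (SE), adjusted p = 0.000142. Both were genes of low counts in the DMSO libraries, and neither showed overlap between the conditions. Genes of the deposited table reach at least 700 counts in 2 or more libraries. PCLO and CREB5 reached that level only with Mps1i, so their inclusion depended on the condition in which they are high. Their calls and lack of overlap are in part a result of this. PNRC1, a proline-rich nuclear receptor coregulator, rose by 0.91 (adjusted p = 1.60e-05). KLHL24, a substrate adaptor of the Cullin-3 ubiquitin ligase that acts on keratin 14, rose by 0.90 (adjusted p = 0.000927). DYRK1B, a kinase linked to quiescence, rose by 0.89 (adjusted p = 9.32e-05). PSTPIP2, a membrane-curving F-BAR protein, rose by 0.86 (adjusted p = 0.000738), and IFIT2, an interferon-induced RNA-binding protein, by 0.89 (adjusted p = 0.00543). For IFIT2 the Mps1i libraries were uneven: that of 800 ms in experiment 1 was at 8.93 CPM and the other 3 were between 5.95 and 6.22 CPM. The processed pseudogene ENSG00000186076 on chromosome 12 was at 0.54, 1.4, 6.1 and 2.41 CPM with DMSO and 12.7, 13, 8.55 and 18.7 CPM with Mps1i, with a log2 fold change of 2.56 ± 0.47 (SE), adjusted p = 0.00294. PKD1P3, a pseudogene of the polycystin gene PKD1, rose by 1.00 (adjusted p = 0.00558). Reads of a pseudogene can come from its parent gene, so these last values are uncertain. KLHL24, IFIT2 and PKD1P3 also reached the count minimum only with Mps1i. ENSG00000186076 met it only with Mps1i libraries counted in. For these genes too, inclusion depended on the condition in which they are high.

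**Figure D1:**
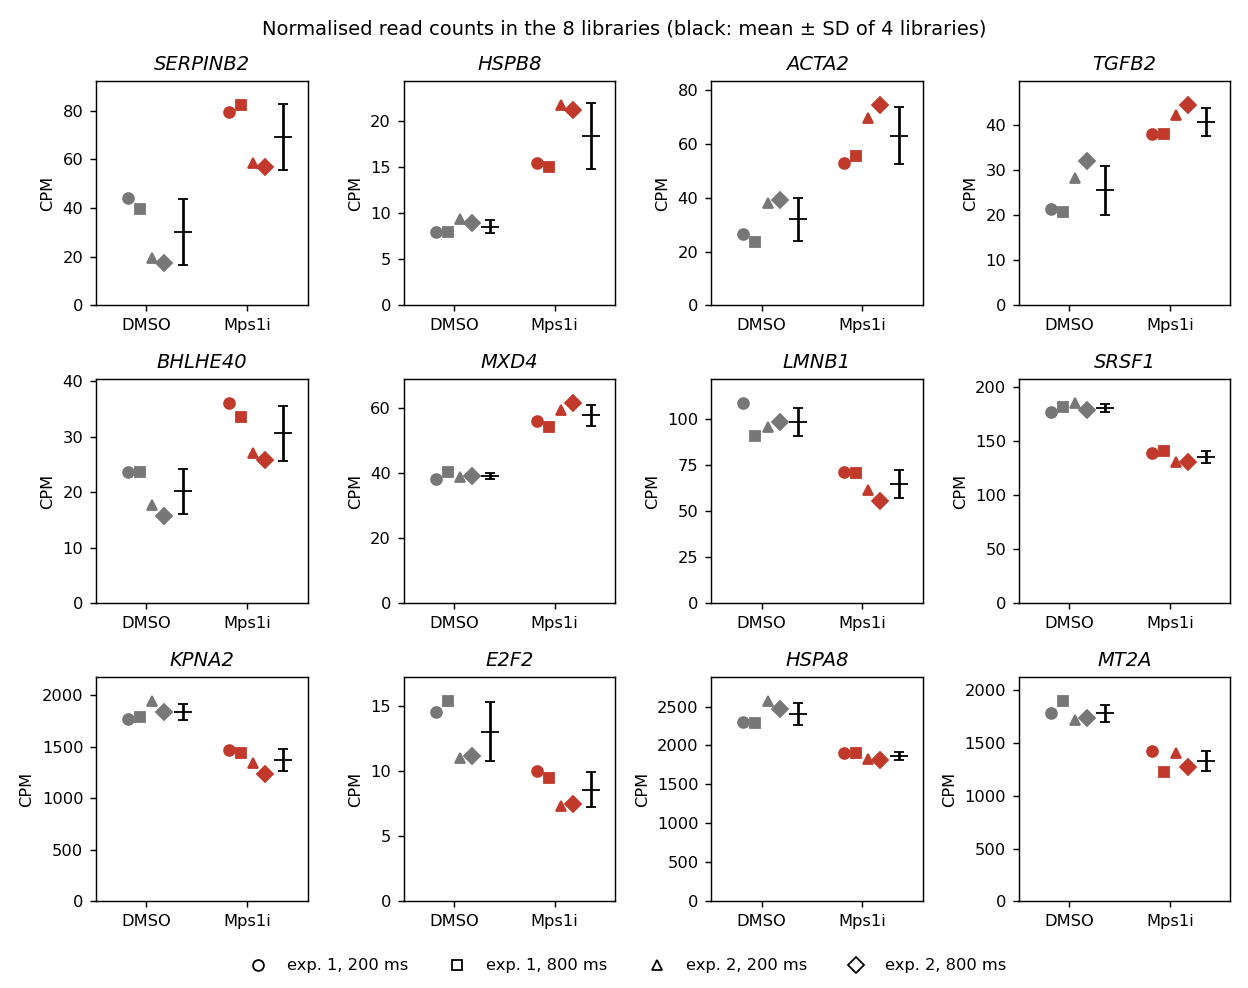
TMM-scaled CPM (y axis, from 0) of 12 genes in the 4 DMSO and 4 Mps1i libraries, with the marker shape giving experiment and pulse length and the black bar the mean ± SD of 4 libraries. The 12 were picked from called genes, MT2A after its values were seen. The conditions do not overlap in any of them, from SERPINB2 with 17.6 to 44.2 CPM in DMSO and 56.7 to 82.3 CPM in Mps1i to MT2A. Over all genes tested 19.3% show no overlap, and among the called named genes 27 do overlap. In every gene shown but MT2A the Mps1i libraries of the experiments lie apart from each other.

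The decreases named by the same rule included a gene of the nuclear lamina, an E2F factor and genes with roles in cell division. LMNB1 encodes lamin B1, a filament protein under the inner nuclear membrane that is known to fall in senescent cells. It was measured at 109, 90.8, 95.5 and 98.4 CPM with DMSO and 71.1, 70.9, 61.3 and 55.7 CPM with Mps1i. The highest Mps1i library was below the lowest DMSO library, and the log2 fold change of LMNB1 was -0.61 ± 0.06 (SE), adjusted p = 0.000125. LMNB2, the gene of the other B-type lamin and chosen after its values were seen, was at 164, 150.0, 141 and 159 CPM with DMSO and 123, 113, 121 and 118 CPM with Mps1i and fell as well, with -0.37 ± 0.05 (SE), adjusted p = 0.000481. The A-type lamin gene LMNA was not called, at 0.01 (adjusted p = 0.882). E2F2, an E2F factor of the G1 to S transition, was at 14.6, 15.4, 11 and 11.2 CPM with DMSO and 10.1, 9.47, 7.34 and 7.53 CPM with Mps1i, with a log2 fold change of -0.60 ± 0.07 (SE), adjusted p = 0.000148. Both libraries of experiment 1 were above both of experiment 2 in each condition.

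PIF1, a DNA helicase of telomeres and replication forks, was at 29.5, 28.8, 31.2 and 30.4 CPM with DMSO and 20.1, 20.3, 21.6 and 18.7 CPM with Mps1i, a log2 fold change of -0.57 ± 0.05 (SE), adjusted p = 7.72e-05. CKS2, a small subunit of cyclin-dependent kinases, was at 258, 276, 300.3 and 279.7 CPM with DMSO and 205, 191, 202 and 177 CPM with Mps1i, a log2 fold change of -0.52 ± 0.06 (SE), adjusted p = 0.000125. CIT, the citron kinase of the cytokinetic midbody, fell by 0.49 (adjusted p = 0.000262), and SAPCD2, which acts in spindle orientation, by 0.50 (adjusted p = 8.82e-05). These genes have roles in division although they were not in the mitotic list. KLHL11, another Cullin-3 adaptor, fell by 0.55 (adjusted p = 0.00092), and TESMIN, a CXC-domain protein known from testis, by 0.52 (adjusted p = 0.000368). FAM72A and FAM72D fell by 0.52 (adjusted p = 0.00287) and 0.59 (adjusted p = 0.0198), but they are near-identical copies that can exchange reads. Weaker calls were those of U2AF1 (-0.72, adjusted p = 0.0477, 0.0854 without the block), a splice-site recognition factor with a near-identical copy in this genome build, and of ALMS1 (-0.52, adjusted p = 0.0259), a protein of the basal body. Leaving out 1 library took the adjusted p of U2AF1 to 0.134 (without DMSO 200 ms of experiment 2), that of ALMS1 to 0.0915 (without DMSO 800 ms of experiment 2) and that of FAM72D to 0.0556 (without Mps1i 800 ms of experiment 2).

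**Figure D2:**
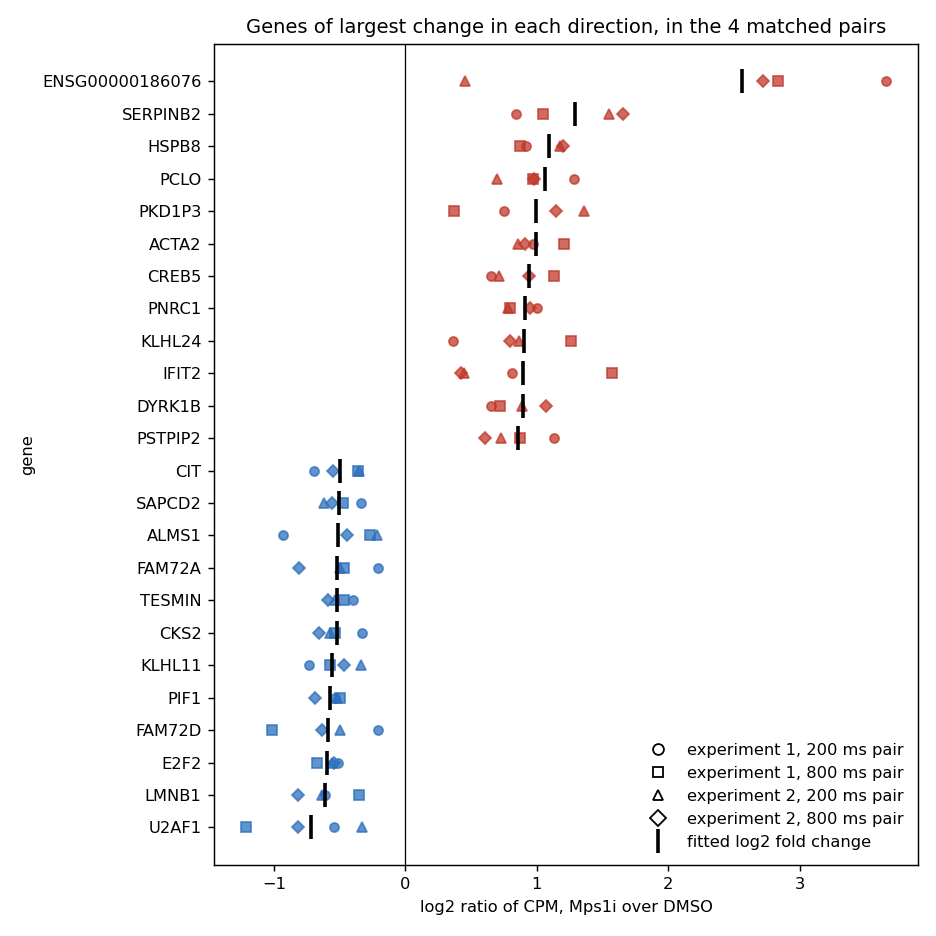
Log2 ratio of CPM, Mps1i over DMSO (x axis), in the 4 matched pairs of libraries for the 12 higher (red) and 12 lower (blue) genes of the naming rule; marker shape gives experiment and pulse length and the black bar the fitted value. All pairs of a gene lie on one side of 0, as the rule requires, and the pairs spread most for the pseudogene ENSG00000186076, followed by IFIT2.

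Among the most abundant transcripts, called changes were small, and those of TUBB, VIM, PKM and PSMD2 below were not called with pulse lengths summed. HSPA8, the constitutive Hsc70 chaperone, was at 2301, 2284, 2571 and 2466 CPM with DMSO and 1898, 1909, 1828 and 1813 CPM with Mps1i and fell by 0.37 on the log2 scale (adjusted p = 0.000121). ACTG1, the gene of cytoplasmic gamma-actin, went from a mean of 8750 ± 203 CPM (SD, n = 4) to 7913 ± 299.9 CPM, a log2 fold change of -0.15 ± 0.02 (SE), adjusted p = 0.00063. The other abundant genes that were lower were TUBB, the beta-tubulin gene (-0.15, adjusted p = 0.0016), the vimentin gene VIM (-0.10, adjusted p = 0.0131), and the cyclophilin A gene PPIA (-0.09, adjusted p = 0.0362, 0.0947 without the block). Abundant genes that were higher included the pyruvate kinase gene PKM (0.13, adjusted p = 0.00304), the proteasome gene PSMD2 (0.14, adjusted p = 0.00639), the ferritin heavy chain gene FTH1 (0.14, adjusted p = 0.0258, 0.388 without the block) and the integrin gene ITGB1 (0.10, adjusted p = 0.0277, 0.137 without the block). Without single libraries the adjusted p reached 0.102 for PPIA (without DMSO 800 ms of experiment 1), 0.0908 for FTH1 (without DMSO 800 ms of experiment 2) and 0.0804 for ITGB1 (without Mps1i 200 ms of experiment 2).

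Among gene lists of cellular functions with at least 8 measured members, the 8 with the highest and the 8 with the lowest median change are described here, the lists set aside and the identity markers left out, beside a median of -0.0042 over all genes and the shares of 12.7% higher and 11.8% lower given above. Lists share members, and genes of one list are not independent. The highest median was that of FOXO targets and inhibitors of PI3K and mTORC1, a list that mixes target genes with pathway inhibitors. In it 16 of 32 measured genes rose and 1 fell, with a median of 0.158, and 13 of the 16 also passed without the block. Of the 16, 4 are p53 targets as well. Outside those, TXNIP, an inhibitor of thioredoxin and of glucose uptake, was at 75.8, 66.1, 81 and 81.4 CPM with DMSO and 126, 126, 101 and 99.3 CPM with Mps1i, with a log2 fold change of 0.56 ± 0.09 (SE), adjusted p = 0.00141. CITED2, a coactivator-binding protein, rose by 0.34 (adjusted p = 0.000125), the kinase gene SGK1 by 0.28 (adjusted p = 0.00207) and PINK1, the kinase that marks damaged mitochondria, by 0.24 (adjusted p = 0.000409). The gene that fell was the Akt phosphatase gene PHLPP2 (-0.37, adjusted p = 0.0145). Its adjusted p was 0.0521 without DMSO 800 ms of experiment 2.

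In the circadian clock list 9 of 18 genes rose and 1 fell, with a median of 0.142. The clock is a loop in which CLOCK and BMAL1 drive genes whose products, among them PER, CRY and BHLHE proteins, act back on them. BHLHE40 was at 23.6, 23.6, 17.8 and 15.6 CPM with DMSO and 36, 33.5, 27 and 25.9 CPM with Mps1i, a log2 fold change of 0.61 ± 0.06 (SE), adjusted p = 5.34e-05. BHLHE41, its paralogue, was at 4.97, 5.83, 7.49 and 7.36 CPM with DMSO and 8.83, 9.3, 9.83 and 9.99 CPM with Mps1i, a log2 fold change of 0.58 ± 0.09 (SE), adjusted p = 0.00151. Higher levels were thus measured for both repressors of this family, while CLOCK itself was the gene that fell, at 27.4, 24.6, 27.8 and 28.8 CPM with DMSO and 20.2, 20.7, 22.6 and 22.6 CPM with Mps1i, with -0.33 ± 0.05 (SE), adjusted p = 0.000826. Of the other members, the repressor genes PER1 (0.56, adjusted p = 0.00639) and NFIL3 (0.34, adjusted p = 0.00592) and the PAR bZIP gene TEF (0.37, adjusted p = 0.00764) rose too, all but NFIL3 named after their values were seen.

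Genes of signalling by TGF-beta, activin and BMP rose in 11 of 39 cases and fell in 1, with a median of 0.129; without the block 7 rose. The ligand gene TGFB2 was at 21.3, 20.7, 28.1 and 31.9 CPM with DMSO and 37.8, 38, 42.1 and 44.3 CPM with Mps1i, a log2 fold change of 0.68 ± 0.07 (SE), adjusted p = 0.000103. All Mps1i libraries were above all DMSO libraries although experiment 2 ran higher in both conditions. BAMBI, a decoy receptor of the pathway, was at 15.2, 16.1, 16.7 and 15.7 CPM with DMSO and 20.6, 20.4, 25.3 and 24.2 CPM with Mps1i, with 0.50 ± 0.06 (SE), adjusted p = 0.000265. Among receptors and targets, the type I receptor gene ACVR1 (0.34, adjusted p = 0.00175) and ID2 (0.50, adjusted p = 0.00216), an inhibitor of bHLH factors, rose. The corepressor gene TGIF2 (-0.21, adjusted p = 0.0442, 0.209 without the block) was the one that fell, and its adjusted p was 0.144 without DMSO 800 ms of experiment 2.

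Complement and coagulation genes rose in 12 of 21 cases and fell in 1 (median 0.146), but only 4 of the 12 passed without the block. PLAU, the gene of the protease urokinase, was at 761, 714, 544 and 503 CPM with DMSO and 887, 829, 694 and 675 CPM with Mps1i; here the conditions overlapped across experiments, and the call of 0.30 (adjusted p = 0.000859) was not made without the block (adjusted p = 0.172). The chaperone clusterin, CLU (0.41, adjusted p = 0.000138), and the complement regulator CD46 (0.23, adjusted p = 0.00143) were members that rose as well. The complement component gene C5 (-0.30, adjusted p = 0.0229, 0.0924 without the block) fell, with an adjusted p of 0.0875 without Mps1i 200 ms of experiment 2.

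Matrix proteins and proteoglycans rose in 10 of 28 cases and fell in 1 (median 0.106), of which 3 and 1 passed without the block. CCN2, a matricellular protein and classic target of YAP and TGF-beta, was at 1078, 1050, 1263 and 1258 CPM with DMSO and 1219, 1227, 1670 and 1676 CPM with Mps1i, a log2 fold change of 0.30 ± 0.04 (SE), adjusted p = 0.000417 with the block and an adjusted p of 0.0913 without it, since the conditions overlapped. Heparan sulfate proteoglycans moved both ways: GPC1 (0.34, adjusted p = 0.00103) and SDC2 (0.17, adjusted p = 0.0071) rose and SDC4 (-0.20, adjusted p = 0.00671) fell. In cadherins, catenins and junction proteins 12 of 35 rose and 3 fell (median 0.105). The protocadherin gene PCDH10 (0.48, adjusted p = 0.000551), the T-cadherin gene CDH13 (0.27, adjusted p = 0.00284) and the tight junction gene CLDN1 (0.42, adjusted p = 0.00165, 0.177 without the block) rose. The gap junction gene GJC1 (-0.24, adjusted p = 0.00331), beta-catenin, CTNNB1 (-0.25, adjusted p = 0.0195), and afadin, AFDN (-0.20, adjusted p = 0.0189, 0.0552 without the block), were those that fell. Leaving out DMSO 800 ms of experiment 2 took the adjusted p of CTNNB1 to 0.0601, and leaving out Mps1i 800 ms of experiment 2 that of AFDN to 0.0707.

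Lysosomal enzymes and membrane proteins, the degradative end of endocytosis and autophagy, showed a broad and small shift. Of 66 genes 28 rose and 0 fell (median 0.114), 60 had a positive value, and 13 rose without the block. PSAP, the precursor of the saposins that activate sphingolipid breakdown, was at 1969, 1840, 1796 and 1760 CPM with DMSO and 2341, 2265, 2238 and 2197 CPM with Mps1i, a log2 fold change of 0.30 ± 0.03 (SE), adjusted p = 9.11e-05. The cathepsin B gene CTSB was at 1292, 1264, 1178 and 1169 CPM with DMSO and 1471, 1445, 1370 and 1327 CPM with Mps1i, with 0.20 ± 0.03 (SE), adjusted p = 0.000446. Proton pump and peptidase genes moved by as little, with ATP6AP2 (0.20, adjusted p = 0.00143) and TPP1 (0.22, adjusted p = 0.00219). In antigen presentation 6 of 14 genes rose and 0 fell (median 0.121). They included the MHC class I gene HLA-B (0.19, adjusted p = 0.00606), its transcriptional activator NLRC5 (0.29, adjusted p = 0.0128), the class I-like gene MR1 (0.33, adjusted p = 0.000621) and the ER disulfide isomerase gene PDIA3 (0.12, adjusted p = 0.0182, 0.0656 without the block). The adjusted p of PDIA3 was 0.0648 without DMSO 800 ms of experiment 2.

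**Figure D3:**
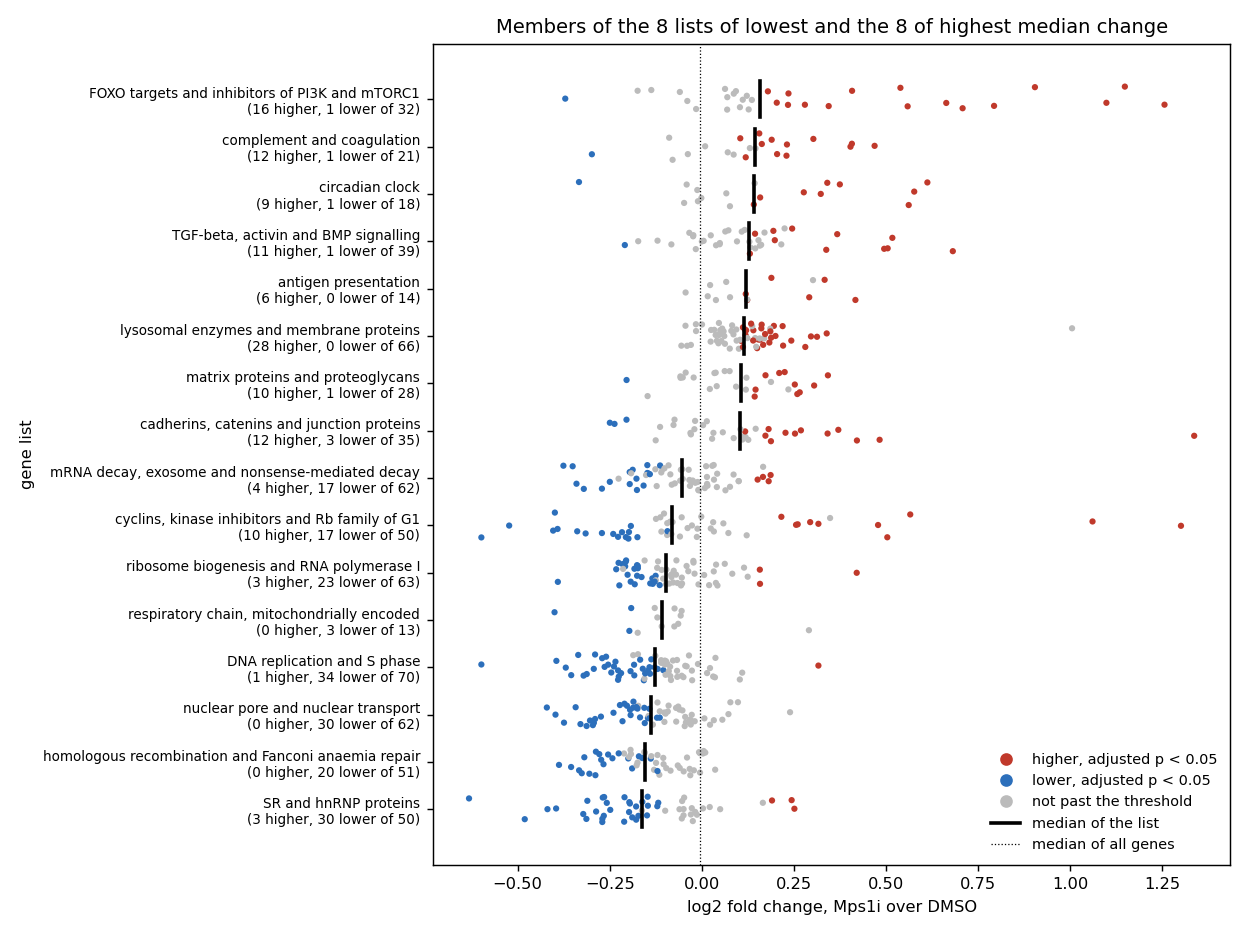
Log2 fold change, Mps1i over DMSO (x axis), of every measured member of the 8 lists of lowest and the 8 of highest median, with red and blue points for members past the threshold, grey for the others, a black bar at each list's median and a dotted line at the median of all genes. The medians run from -0.162 for SR and hnRNP proteins to 0.158 for FOXO targets and inhibitors of PI3K and mTORC1, and most single members lie within 0.5 of 0.

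The lowest median was that of SR and hnRNP proteins, which bind nascent RNA and set splice sites. Of 50 genes 30 fell and 3 rose (median -0.162), and 24 fell without the block. SRSF1 was at 177, 182, 185 and 179 CPM with DMSO and 139, 141, 130.2 and 130.2 CPM with Mps1i, a log2 fold change of -0.42 ± 0.04 (SE), adjusted p = 3.23e-05. SRSF3 was at 473, 506, 455 and 453 CPM with DMSO and 402, 415, 354 and 351 CPM with Mps1i, with -0.31 ± 0.03 (SE), adjusted p = 0.000165. For both, the highest Mps1i library was below the lowest DMSO library. SRSF2 (-0.27, adjusted p = 0.000136) and HNRNPA0 (-0.48, adjusted p = 0.000508), which binds AU-rich RNA, fell too. The members that rose were the SR protein kinase gene CLK1 (0.19, adjusted p = 0.00784, 0.0506 without the block), the muscleblind gene MBNL2 (0.24, adjusted p = 0.0148, 0.243 without the block) and the polypyrimidine tract protein gene PTBP2 (0.25, adjusted p = 0.0232). Leaving out Mps1i 200 ms of experiment 2 took the adjusted p of PTBP2 to 0.0936. In the core spliceosome 14 of 55 genes fell and 1 rose, at a median of -0.0441.

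Genes of transport between nucleus and cytoplasm were lower too. Of 62 genes for the nuclear pore and its transport receptors 30 fell and 0 rose (median -0.138), 16 of them without the block. KPNA2, an importin alpha that is more abundant in cycling cells, was at 1770, 1794, 1945 and 1839 CPM with DMSO and 1472, 1445, 1341 and 1239 CPM with Mps1i, a log2 fold change of -0.42 ± 0.05 (SE), adjusted p = 0.000272. The main export receptor gene XPO1 was at 179, 182, 190.2 and 201 CPM with DMSO and 140.2, 138, 152 and 169 CPM with Mps1i, with -0.33 ± 0.04 (SE), adjusted p = 0.000352. The import receptor gene IPO7 (-0.40, adjusted p = 0.00885), chosen after its values were seen, and the membrane pore genes NDC1 (-0.30, adjusted p = 0.000306) and POM121C (-0.37, adjusted p = 0.000925) fell as well. POM121C has a close paralogue, POM121, with which it can share reads.

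DNA replication and repair genes were lower by small amounts. In DNA replication and S phase 34 of 70 genes fell and 1 rose (median -0.127), yet only 8 fell without the block. The licensing factor gene CDT1 was at 67.3, 67.3, 54.4 and 55.6 CPM with DMSO and 49.9, 47.7, 44 and 46.7 CPM with Mps1i, a log2 fold change of -0.37 ± 0.05 (SE), adjusted p = 0.000369. Its inhibitor geminin, GMNN, was at 113, 119, 107 and 101 CPM with DMSO and 98.2, 96.3, 79 and 77.3 CPM with Mps1i, with -0.34 ± 0.04 (SE), adjusted p = 0.000363. Both were thus lower. The DNA methylation maintenance gene UHRF1 (-0.32, adjusted p = 0.000368, 0.0622 without the block) fell. The cyclin gene CCNE1 (0.32, adjusted p = 0.0191, 0.244 without the block) was the member that rose, with an adjusted p of 0.0709 without DMSO 800 ms of experiment 2. In homologous recombination and Fanconi anaemia repair 20 of 51 genes fell and 0 rose (median -0.155), 12 without the block. They included the ubiquitin-conjugating enzyme and ligase of the Fanconi pathway, UBE2T (-0.39, adjusted p = 0.000927) and FANCL (-0.35, adjusted p = 0.00136), the core complex gene FANCE (-0.31, adjusted p = 0.00149) and the BRCA1 partner BARD1 (-0.33, adjusted p = 0.00106, 0.0547 without the block).

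Ribosome biogenesis and RNA polymerase I genes fell in 23 of 63 cases and rose in 3 (median -0.096), of which 8 and 1 passed without the block. With pulse lengths summed 3 fell and 1 rose, near the share of 427 lower of all 10577 genes. GAR1, of the snoRNPs that guide pseudouridylation, was at 21.4, 20.8, 21.7 and 21.5 CPM with DMSO and 16.7, 15.4, 16.7 and 16.3 CPM with Mps1i, a log2 fold change of -0.39 ± 0.05 (SE), adjusted p = 0.000413. The nucleolar helicase gene DDX21 (-0.23, adjusted p = 0.000643), the 2'-O-methyltransferase fibrillarin, FBL (-0.21, adjusted p = 0.00275), and RRP1B (-0.23, adjusted p = 0.00516) fell as well, and DDX47 (0.16, adjusted p = 0.00866), RRP12 (0.16, adjusted p = 0.0366, 0.0776 without the block) and GNL3L (0.42, adjusted p = 0.0368, 0.0764 without the block) were the 3 that rose, RRP12 and GNL3L each in 3 of 4 matched pairs. The adjusted p of RRP12 was 0.112 and that of GNL3L 0.106 without Mps1i 800 ms of experiment 2 and of experiment 1, respectively. In mRNA decay 17 of 62 genes fell and 4 rose (median -0.055), against 6 and 0 without the block and 4 and 0 with pulse lengths summed. The LSM ring genes LSM2 (-0.38, adjusted p = 0.00291) and LSM5 (-0.25, adjusted p = 0.00322), the exosome gene EXOSC3 (-0.34, adjusted p = 0.00149) and the Argonaute gene AGO1 (-0.32, adjusted p = 0.0032) fell. The 4 that rose were SMG8 (0.15, adjusted p = 0.0331, 0.11 without the block), XRN1 (0.17, adjusted p = 0.0402, 0.168 without the block), DCP1B (0.18, adjusted p = 0.0154, 0.0604 without the block) and ZFP36L1 (0.19, adjusted p = 0.0254, 0.0716 without the block). Single left-out libraries took SMG8 to 0.0943 (DMSO 200 ms of experiment 2), XRN1 to 0.0967 (Mps1i 800 ms of experiment 2) and ZFP36L1 to 0.0848 (DMSO 800 ms of experiment 2).

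Of the 13 transcripts encoded by mitochondrial DNA, 3 fell and 0 rose (median -0.109), and none passed without the block. With pulse lengths summed, and in experiment 2 alone, 1 rose and 0 fell. The 3 were MT-ND3 (-0.40, adjusted p = 0.0177, 0.0984 without the block), MT-ND2 (-0.19, adjusted p = 0.0259, 0.136 without the block) and MT-CO3 (-0.20, adjusted p = 0.028, 0.13 without the block). The medians of the list in the 4 pairs had an SD of 0.141, larger than the median itself. Leaving out 1 library took the adjusted p to 0.0511 for MT-ND3 (Mps1i 200 ms of experiment 1), 0.0725 for MT-ND2 (DMSO 800 ms of experiment 1) and 0.0745 for MT-CO3 (Mps1i 800 ms of experiment 1). Nuclear genes of the respiratory chain fell in 7 of 78 cases and rose in 0, below the background share of 11.8%.

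Regulators of G1 moved both ways: 17 of 50 fell and 10 rose (median -0.081). In the MAX network, where MXD proteins and MXI1 compete with MYC for the partner MAX, MXD4 was at 38, 40.4, 38.6 and 39 CPM with DMSO and 56, 54.1, 59.3 and 61.4 CPM with Mps1i, a log2 fold change of 0.57 ± 0.04 (SE), adjusted p = 2.28e-05. MXI1 was at 13, 13.2, 13.5 and 14.8 CPM with DMSO and 17.8, 20.2, 19.2 and 18.7 CPM with Mps1i, with 0.48 ± 0.06 (SE), adjusted p = 0.000448. The remaining values of this network were chosen after they were seen: MXD3 (-0.34, adjusted p = 0.000854) fell and MYC (0.26, adjusted p = 0.000826) rose. The Cdk4/6 inhibitor gene CDKN2B (0.50, adjusted p = 0.00248) rose and the pocket protein gene RBL1 (-0.39, adjusted p = 0.00149) fell.

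Other lists are given by their counts, with members chosen after their values were seen. In cytosolic heat shock and chaperonin genes 6 rose and 10 fell of 49. Beside HSPB8, the related gene CRYAB (0.58, adjusted p = 0.00142, 0.0597 without the block) and HSPA4L (0.55, adjusted p = 0.000262) rose, while the mitochondrial chaperonin gene HSPE1 (-0.25, adjusted p = 0.00948) and HSP90AA1 (-0.20, adjusted p = 0.00528, 0.0525 without the block) fell along with HSPA8. Of 33 metal handling genes 3 fell and 0 rose, below the background share of 11.8%. The 3 were metallothioneins, small proteins that bind zinc and copper. MT2A was at 1777, 1895, 1716 and 1735 CPM with DMSO and 1419, 1226, 1404 and 1272 CPM with Mps1i, a log2 fold change of -0.42 ± 0.05 (SE), adjusted p = 0.000246. MT1E (-0.46, adjusted p = 0.000363) and MT1X (-0.33, adjusted p = 0.00197) fell beside it; metallothionein genes are similar in sequence and can share reads. In NRF2, glutathione and thioredoxin genes 19 of 50 rose and 1 fell. OSGIN1, a target of NRF2, was at 12.3, 13, 11.4 and 11.3 CPM with DMSO and 18, 18.7, 20.7 and 22.4 CPM with Mps1i, with 0.74 ± 0.08 (SE), adjusted p = 0.000145. The glutathione synthesis gene GCLC (0.36, adjusted p = 0.00557) and the cystine transporter gene SLC7A11 (0.37, adjusted p = 0.00317) rose, and GGCT (-0.35, adjusted p = 0.00266), which breaks down gamma-glutamyl peptides, fell. HMOX1, heme oxygenase, was at 100.4, 102, 67.8 and 68.8 CPM with DMSO and 127, 122, 142 and 144 CPM with Mps1i, a log2 fold change of 0.68 ± 0.12 (SE), adjusted p = 0.00243. Its rise was larger in experiment 2, by 0.77 on the log2 scale (adjusted p = 0.00191 for the difference).

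Proteasome genes rose in 13 of 45 cases, with PSMD3 (0.25, adjusted p = 0.000472) and PSMC2 (0.21, adjusted p = 0.000802) as examples, and PSMG1 (-0.17, adjusted p = 0.0221, 0.0814 without the block), an assembly chaperone, was the 1 that fell. The adjusted p of PSMG1 was 0.0823 without Mps1i 200 ms of experiment 2. Matrix proteases and their inhibitors rose in 14 of 35 cases and fell in 0, with MMP19 (0.46, adjusted p = 0.0102) and TIMP3 (0.34, adjusted p = 0.00174). Receptor tyrosine kinases and their ligands rose in 12 of 34 and fell in 3; the ligands TGFA (0.53, adjusted p = 0.00211), AREG (0.42, adjusted p = 0.00645) and CSF1 (0.37, adjusted p = 0.000161) rose. Among cytokines and chemokines 8 of 31 rose and 0 fell. CXCL8, interleukin 8, was at 52.7, 58.1, 26.2 and 22.4 CPM with DMSO and 79.9, 63.5, 64.4 and 57.3 CPM with Mps1i, and its call of 0.85 (adjusted p = 0.0041) was not made without the block (adjusted p = 0.0928). Collagens and basement membrane genes rose in 10 of 36 cases and fell in 0. Purine and pyrimidine synthesis went the other way, with 13 of 45 lower and 1 higher, but 3 lower and 1 higher without the block, near the 609 lower of all 10577 genes: PPAT (-0.22, adjusted p = 0.00699), the first step of purine synthesis, and PAICS (-0.20, adjusted p = 0.00304) fell. Only 15 of 75 listed histone genes were measured, so most of the list is not described. Of the 15, 5 fell and 3 rose, with the variant H2AX (-0.44, adjusted p = 0.000104) among the former and H2BC12 (0.38, adjusted p = 0.00915) among the latter.

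Counts at or below the background shares in both directions were found for Notch (2 higher, 0 lower of 18), Wnt (3 and 2 of 29), the primary cilium and Hedgehog genes (6 and 3 of 53), N-glycosylation (5 and 5 of 54), the citric acid cycle (3 and 1 of 38), RNA polymerase II and Mediator (1 and 8 of 79) and sensors of cytosolic DNA and RNA (3 and 2 of 28). Grouping all genes by the letters of their symbol, outside the ribosomal proteins, gave the lowest medians for KIF (-0.143), NUP (-0.133), MRPL (-0.0824) and SMIM (-0.0784) and the highest for TRIM (0.0479), ARHGAP (0.0448), SEC (0.0445) and DHX (0.0444). In the kinesin family 13 of 24 fell, mostly mitotic motors. Its called members outside the mitotic list were the transport kinesin KIF13A (0.27, adjusted p = 0.0137), which rose, and KIF2A (-0.15, adjusted p = 0.0181, 0.0635 without the block) and KIF5B (-0.13, adjusted p = 0.024, 0.0635 without the block), with adjusted p of 0.0599 and 0.0884 without Mps1i 800 ms of experiment 2. Of 21 NUP genes 8 fell and 0 rose. Those that fell included the nucleoporins NUP35 (-0.27, adjusted p = 0.00245), NUP62 (-0.19, adjusted p = 0.00294, 0.0599 without the block) and NUP50 (-0.29, adjusted p = 0.00375).

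Of 48 MRPL genes of the mitochondrial ribosome 7 fell and 1 rose, near the background share of 11.8% lower. MRPL12 (-0.18, adjusted p = 0.0105) and MRPL33 (-0.20, adjusted p = 0.0154) fell and MRPL49 (0.17, adjusted p = 0.00406) rose. Of 15 SMIM genes 2 fell and 0 rose, also near 11.8%. The small membrane protein genes SMIM11 (-1.10, adjusted p = 0.0252, 0.0531 without the block) and SMIM26 (-0.14, adjusted p = 0.0346, 0.0894 without the block) were lower, SMIM11 in 3 of 4 pairs, but adjusted p without 1 library reached 0.0968 for SMIM11 (DMSO 200 ms of experiment 1), 0.103 for SMIM26 and 0.0503 for MRPL33 (both Mps1i 800 ms of experiment 2). In the TRIM family 9 of 33 rose and 3 fell; the paralogues TRIM16 (0.31, adjusted p = 0.00078) and TRIM16L (0.49, adjusted p = 0.000138), which can share reads, rose and the corepressor gene TRIM28 (-0.15, adjusted p = 0.00988) fell. In the ARHGAP family 4 of 18 rose and 3 fell. ARHGAP24 (0.45, adjusted p = 0.00425) and ARHGAP1 (0.12, adjusted p = 0.0247, 0.171 without the block) rose and ARHGAP19 (-0.35, adjusted p = 0.000494) fell. The adjusted p of ARHGAP1 was 0.0751 without Mps1i 200 ms of experiment 2. Of 25 SEC genes 4 rose and 0 fell, near the background share of 12.7% higher. The COPII coat genes SEC31A (0.14, adjusted p = 0.0152), SEC31B (0.29, adjusted p = 0.0048) and SEC24D (0.12, adjusted p = 0.0302, 0.188 without the block) rose, SEC24D with an adjusted p of 0.108 without Mps1i 800 ms of experiment 2. Of 16 DHX genes 1 rose and 0 fell, below the background share of 12.7%. The 1 that rose was the helicase gene DHX32 (0.27, adjusted p = 0.00034).

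Identity markers were checked against the label. Of 32 markers of retinal pigment epithelium 12 were in the table; the visual cycle gene RPE65 and the pigment genes TYR, TYRP1 and PMEL were not listed, and MITF, OTX2, PAX6 and the keratin genes KRT8 and KRT18 were. The summed level of the 12 ranged from 4076 to 4347 CPM with DMSO and from 4317 to 4439 CPM with Mps1i; 6 rose and 0 fell, among them RDH10 (0.35, adjusted p = 0.00185) and PAX6 (0.20, adjusted p = 0.0159). Of 35 epithelial and mesenchymal markers 19 were measured, of which 5 rose and 2 fell. Mesenchymal genes such as VIM, FN1 and CDH2 were present. Of epithelial genes, CDH1 and EPCAM were not listed, but the keratin genes above and the tight junction gene CLDN1 were. Of 15 blood and endothelial markers 1, CD68, was in the table.

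By chromosome, median changes lay between -0.0302 for chromosome 21 and 0.0154 for chromosome 3, with -0.109 for mitochondrial DNA. Over 24 chromosomes the share of a library's counts gave no adjusted p under 0.229 in an exact two-sided permutation test over the 8 libraries, whose smallest unadjusted p is 0.0286. Chromosomes 7, 15 and 17 reached that p, with 6.163%, 3.926% and 6.262% of counts in Mps1i and 6.075%, 3.86% and 6.445% in DMSO. Without the 20 genes of highest counts, chromosomes 6, 7 and 17 were at 0.0286 and chromosome 15 at 0.971. The test left out the block, and its adjusted p could fall under 0.05 only if many chromosomes reached the smallest p. It thus cannot show that shares were unchanged. Calls also varied with base composition. Genes were put into 5 equal bins by GC content of transcripts. In the bin of lowest GC 9.0% were higher and 16.9% lower, and in that of highest GC 13.3% were higher and 6.52% lower. With trends in transcript length and GC content removed, those shares were 14.1% and 14.4% in the lowest bin and 12% and 13.2% in the highest. Long genes were called lower less often, 8.46% in the longest of 5 bins against 13.2% in the shortest.

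Promoter windows of 300 bases, 250 before and 50 after the start, were taken from RefSeq (GRCh38.p14) for 8406 of the tested genes. The sequence TTTGAA, the core letters of the cell cycle homology region (CHR) through which the DREAM complex acts, was found on either strand in 19% of windows of genes that fell, 8.63% of those that rose and 8.09% of those not called, and in 15.4% of all promoters in the reference. Outside the p53, mitotic and ribosomal protein lists the shares were 16.2% and 8.81%. The E2F letters TTTCCCGC or TTTGGCGC were in 7.25% of windows of genes that fell, 2.94% of those that rose, 3.66% of those not called and 2.31% of all promoters. A TATA box, TATAAA, was in 7.78% of windows of genes that rose, 4.7% of those that fell, 4.15% of those not called and 12% of all promoters. The AP-1 letters TGANTCA were in 6.07%, 2.74% and 3.95% of windows of genes that rose, fell or were not called, and in 7.76% of all promoters. The ATF4 letters TGATGNAA were in 2.56%, 1.37% and 1.47%, and in 3.67% of all promoters. Median GC content was 65.7% in windows of genes that rose and 64.7% in those that fell. Without the block CHR letters were in 24.1% of windows of genes that fell and 9.37% of those that rose. A match describes letters only, and motifs can overlap each other.

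**Figure D4:**
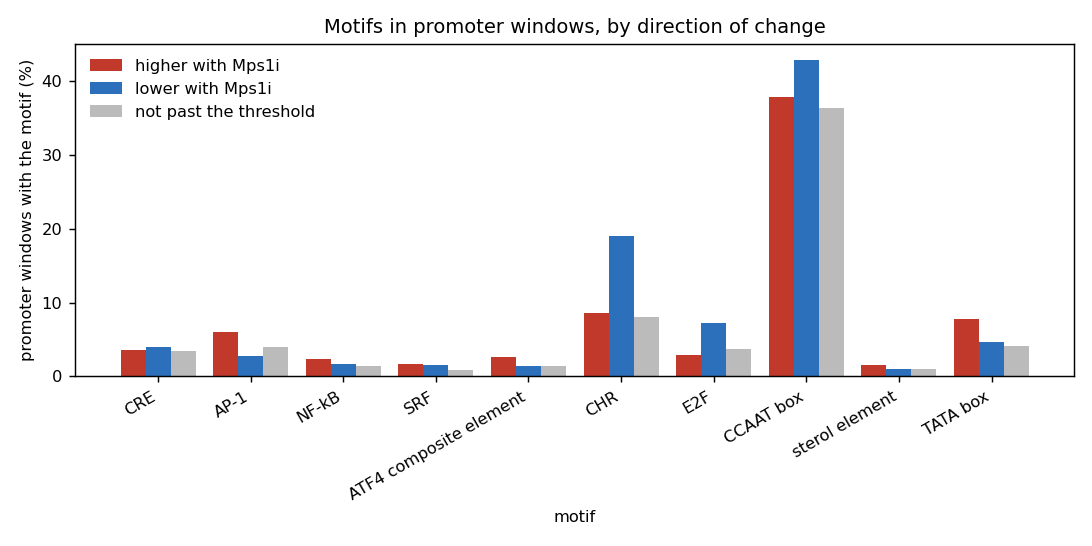
Share of promoter windows with each of 10 motifs (y axis, %, from 0) for genes higher with Mps1i (red), lower (blue) and not past the threshold (grey). CHR letters were in 19% of the windows of genes that were lower and 8.63% of those that were higher, and TATA letters in 4.7% and 7.78%; CRE letters were in 3.92% and 3.61%.

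For 4 of the genes that fell and are not in the mitotic list, the windows are printed in gene orientation, 5' to 3', with the CHR letters in capitals on whichever strand they were found. They were chosen after their values were seen, as named genes that hold the letters. PIF1 lies at chr15:64825598-64825897 on the minus strand, SAPCD2 at chr9:137070508-137070807 on the minus strand, CIT at chr12:119877271-119877570 on the minus strand and KPNA2 at chr17:68035485-68035784 on the plus strand.
PIF1: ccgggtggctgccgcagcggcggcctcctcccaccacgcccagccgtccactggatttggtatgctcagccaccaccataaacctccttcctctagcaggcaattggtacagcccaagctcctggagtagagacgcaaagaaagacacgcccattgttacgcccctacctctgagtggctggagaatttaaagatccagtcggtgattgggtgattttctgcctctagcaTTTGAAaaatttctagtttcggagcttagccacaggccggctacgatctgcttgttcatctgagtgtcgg
SAPCD2: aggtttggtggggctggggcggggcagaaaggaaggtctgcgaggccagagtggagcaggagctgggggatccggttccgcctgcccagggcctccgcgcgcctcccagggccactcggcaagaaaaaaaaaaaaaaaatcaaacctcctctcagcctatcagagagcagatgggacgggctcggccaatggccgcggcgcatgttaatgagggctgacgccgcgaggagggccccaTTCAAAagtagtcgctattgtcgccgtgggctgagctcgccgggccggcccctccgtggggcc
CIT: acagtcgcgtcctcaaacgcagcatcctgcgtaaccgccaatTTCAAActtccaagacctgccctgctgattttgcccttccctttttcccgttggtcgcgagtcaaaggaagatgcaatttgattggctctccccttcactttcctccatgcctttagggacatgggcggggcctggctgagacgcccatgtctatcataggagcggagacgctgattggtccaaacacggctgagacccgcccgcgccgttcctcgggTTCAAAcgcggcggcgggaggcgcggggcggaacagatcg
KPNA2: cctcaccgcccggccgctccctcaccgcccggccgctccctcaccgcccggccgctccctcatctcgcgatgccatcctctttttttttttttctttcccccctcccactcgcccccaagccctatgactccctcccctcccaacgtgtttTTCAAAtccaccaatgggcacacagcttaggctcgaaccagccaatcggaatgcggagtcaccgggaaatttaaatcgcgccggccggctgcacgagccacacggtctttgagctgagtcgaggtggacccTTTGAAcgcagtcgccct
In PIF1 and SAPCD2 the match began 20 and 13 bases before the start. CIT and KPNA2 each held 2 matches, the upstream ones beginning 208 and 99 bases before the start.

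For 2 genes that rose, the windows are shown with the TATA letters in capitals. SERPINB2 lies at chr18:63887455-63887754 and TGFB2 at chr1:218345086-218345385, both on the plus strand.
SERPINB2: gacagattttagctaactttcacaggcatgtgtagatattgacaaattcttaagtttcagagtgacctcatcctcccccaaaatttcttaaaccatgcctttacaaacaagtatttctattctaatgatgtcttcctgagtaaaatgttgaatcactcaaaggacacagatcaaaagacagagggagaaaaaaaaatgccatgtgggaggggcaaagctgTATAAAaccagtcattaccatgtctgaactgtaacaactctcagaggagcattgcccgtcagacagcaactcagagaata
TGFB2: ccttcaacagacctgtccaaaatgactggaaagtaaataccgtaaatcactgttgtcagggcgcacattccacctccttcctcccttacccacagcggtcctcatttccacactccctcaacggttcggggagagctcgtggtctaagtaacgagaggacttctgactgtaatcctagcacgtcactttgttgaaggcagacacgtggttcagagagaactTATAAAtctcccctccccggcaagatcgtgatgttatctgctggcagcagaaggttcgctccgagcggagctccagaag
The match began 30 bases before the start in SERPINB2 and 29 bases before it in TGFB2.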

How the data were processed

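Cells of each library were sorted by photoconversion and sequenced from SMART-Seq v4 cDNA with Nextera XT. Per the labels and the methods, the authors demultiplexed with bcl2fastq 2.20, quantified reads with Salmon 1.2 against hg38 with GC correction and summed transcripts to genes with tximeta. The table the authors deposited holds estimated counts (expected counts, not normalized), and the values show that each gene reaches at least 700 in 2 or more libraries. A gene can meet this minimum through either condition alone. Among named genes PCLO, CREB5, KLHL24, IFIT2, PKD1P3, PER1 and CRYAB met it only with Mps1i, and SMIM11 only with DMSO. Their differences between conditions are thus in part selected. In this table each library of experiment 2 is 1 column for 2 deposited parts, so 12 samples give 8 columns. The other 2 tables of the series were not used here. Depth was 65608678 to 145242185 estimated counts per library. P-values with the block cover only the spread left between libraries once the difference between experiments is taken out.

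The deposited values are whole numbers and were tested as they are in R 4.3.3 with edgeR 4.0.16 (TMM, quasi-likelihood, experiment as block) and Benjamini-Hochberg adjustment over 10577 genes, threshold 0.05. Alternatives used DESeq2 1.42.0, limma 3.58.1 (voom), other normalization, filters, trend removal, pulse lengths summed, single experiments and each library left out. Samples were paired by experiment number: deviations from group means correlated at 0.0279 to 0.3796 between conditions within an experiment and at -0.3751 to -0.0871 across experiments. Deviations cancel within a group, so positive values within an experiment bring negative ones across experiments, and the contrast of sign is in part built in. The pairing comes from the experiment date in the column names. The code was tested on simulated counts.

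Named genes were, per direction, the 12 of largest change and the 5 of highest mean CPM among called genes (the 12 also with the same sign in 4 pairs), up to 4 members of smallest adjusted p in the 8 lists of highest and 8 of lowest median, and up to 3 in the 4 symbol families of highest and 4 of lowest median. Ribosomal protein, p53 and mitotic genes and genes shown in an earlier account were left out, and a few genes the rule named are not reported here. The genes and lists were chosen with earlier results of these data known. Python 3.11.15 and pandas 2.3.3 were used for the summaries.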

Additional observations from a re-analysis of the deposited data

Results flagged for a closer look

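For 4 named genes the change differed between the experiments in the interaction term of edgeR's quasi-likelihood fit. The log2 change in experiment 2 minus that in experiment 1 was 0.68 for SERPINB2 (adjusted p = 0.0199), 0.77 for HMOX1 (adjusted p = 0.00191), 0.95 for CXCL8 (adjusted p = 0.0412) and -0.52 for TXNIP (adjusted p = 0.0382). In each of the 4 genes both experiments gave higher levels with Mps1i.

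In groups of 4 libraries, 1 library stood apart from the other 3 for the genes below, by a criterion that chance meets in about 1 of 20 groups. With 167 named genes examined in both conditions, the 12 genes below are no more than this criterion gives by chance. PCLO was at 2.61 CPM in DMSO 200 ms of experiment 1, with the others at 4.25 to 4.41. IFIT2 was at 8.93 CPM in Mps1i 800 ms of experiment 1, with the others at 5.95 to 6.22. PSMD2 was at 2670 CPM in that same library, against 2571 to 2581. In Mps1i 200 ms of experiment 1 SGK1 was at 159 CPM (others 172 to 174), MRPL12 at 71.7 (63.9 to 65.2), MRPL33 at 82.0 (72.5 to 74.0) and ZFP36L1 at 35.3 (31.9 to 32.3). In DMSO 800 ms of experiment 1 MT1E was at 333 CPM (298 to 303) and GGCT at 45.8 (39.3 to 39.5). In DMSO 200 ms of experiment 2 FBL was at 84.2 CPM (79.1 to 80.0) and GPC1 at 141 (148.0 to 148.5). SDC4 was at 41.0 CPM in Mps1i 200 ms of experiment 2, with the others at 44 to 44.3.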

How the results depend on the processing

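The count of 2593 called genes depended on how experiment and pulse length entered the fit. Without the replicate block it was 1277 (668 higher, 609 lower), with pulse lengths summed 924 (497 and 427), with experiment 1 alone 524 (284 and 240) and with experiment 2 alone 2798. For named genes the adjusted p without the block is given in the text wherever dropping it ended the call, and it changed no other call of a named gene. With pulse lengths summed 48 of 167 named genes were no longer called. Beside genes also lost without the block, these were PKM, PSMD2, VIM, TUBB, FBL, SDC2, SDC4, NFIL3, TEF, AREG, PPAT, PAICS, TRIM28, SEC31A, KIF13A, MRPL12, MRPL33, MRPL49, H2BC12, PAX6, PTBP2 and DDX47. On those sums the lower members numbered 20 for SR and hnRNP proteins, 15 for nuclear transport, 15 for DNA replication, 8 for homologous recombination and 8 for G1 regulators, and the higher members 14 for FOXO targets, 8 for lysosomal genes, 6 for TGF-beta signalling, 6 for matrix proteins, 5 for complement and coagulation, 5 for cadherins, 4 for antigen presentation and 3 for the circadian clock. Without the block, lists whose count is not given so in the text had higher and lower members of 6 and 1 (circadian clock), 6 and 2 (cadherins), 4 and 0 (antigen presentation), 8 and 10 (G1 regulators), 1 and 8 (core spliceosome), 2 and 4 (heat shock), 11 and 1 (NRF2), 8 and 0 (proteasome), 9 and 0 (matrix proteases), 9 and 0 (receptor tyrosine kinases), 6 and 0 (cytokines), 6 and 0 (collagens), 2 and 1 (histones) and 0 and 3 (nuclear respiratory chain). Leaving out 1 library gave 1627 to 2732 calls, the lowest without DMSO 800 ms of experiment 2, with 859 to 1412 higher and 768 to 1320 lower genes. Over 1.5-fold changes numbered 95, against 46 with a mean count of at least 2000 and 164 with experiment 2 alone. Removing trends in length and GC content gave 1377 higher and 1588 lower genes. No called gene named here reversed its direction. LMNA, which was not called, went from 0.01 to -0.01 on leaving out 1 library, and the mitochondrially encoded list went from 3 lower to 1 higher with pulse lengths summed and in experiment 2 alone. List medians moved by more than the spread of the 4 pairs in experiment 1 alone for ribosome biogenesis (-0.0583), complement and coagulation (0.0728) and FOXO targets (0.205), in experiment 2 alone for homologous recombination (-0.206), G1 regulators (-0.0421) and mRNA decay (-0.0727), and with the higher count minimum for mRNA decay (-0.0363), matrix proteins (0.083) and the circadian clock (0.079). Leaving out 1 library moved the matrix protein median between 0.0647 and 0.122. The cause was not tested.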
